A study of Homo sapiens with 4 samples.

Results

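Complement is a set of plasma and membrane proteins that marks cells and particles for removal and can open pores in their membranes. The classical pathway starts when C1q, carrying the proteases C1r and C1s, cleaves C4 and C2, and the alternative pathway amplifies the cleavage of C3 through factor B and factor D. Both lead to cleavage of C5 and assembly of the terminal pore, while soluble and membrane regulators limit each step. The liver makes most of the circulating components, and hepatoma lines have long been used to study their synthesis.

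The 9 genes described here were C1R and C1S, proteases of the first component; C3, the central component; CFB, the factor B protease of the alternative pathway; C5, the first terminal component; the soluble regulators CFI, C4BPA and SERPING1; and CD59, the membrane inhibitor of the pore. They were chosen by symbol, each had 1 line with values among the 57979 lines of the table, and 5 of the 9 were among the 13246 genes with an average above 1 FPKM. FPKM (fragments per length of transcript and per mapped fragment of a library) is a level per transcript length, so genes can be compared with each other on it. Polyadenylated RNA was sequenced from 2 wild-type libraries and 2 TXNDC9 knockout libraries of cells labelled HepG2, a human liver cancer line, all grown in DMEM with fetal bovine serum. The knockout was made with CRISPR-Cas9 and guides against TXNDC9 in the lentiCRISPRv2 plasmid. For protein blots the study sorted infected HepG2 cells by flow cytometry, with vector alone as the control. Whether the sequenced cells were the same, and whether replicates were separate cultures, is not stated in the sources used here, so p-values measure only the spread between these libraries.

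The label HepG2 was not borne out by the defining genes of hepatocytes. Of 10 hepatocyte markers (ALB, AFP, APOA1, APOB, APOH, TTR, SERPINA1, FGB, TF and HNF4A), 10 were under 1 FPKM in every library and 2 were listed at 0 in all of them, and the highest value of any was 0.449 FPKM. Their summed level measured 0.446 and 0.733 FPKM (wild type) against 0.0479 and 0.174 FPKM (knockout). GAPDH measured 8089 and 9019 FPKM (wild type) against 3526 and 3919 FPKM (knockout), and ACTB 4747 and 6310 FPKM against 2106 and 2398 FPKM, so the lines of both held the high values of such genes. Both were lower in the knockout libraries, as was the sum of FPKM over all genes, and the falls of CFD, CLU and VTN given below stand beside these values. The summed level of 8 leukocyte and macrophage markers was 4.44 to 7.84 FPKM, of which CD68 alone gave up to 6.90 FPKM and CD3E and CD163 were at 0 in all libraries. The summed level of 7 endothelial and fibroblast markers was 40.5 to 56.9 FPKM, with COL1A1 at up to 31.5 FPKM and VWF at no more than 0.0205 FPKM. Of these 7 genes 5 were tested. Of the 5, 2 were called higher in the knockout libraries and 0 lower, against 14.2% and 15.3% of all tested genes. The 3 not called, COL3A1, COL1A1 and ACTA2, had log2 fold changes of −0.70, −0.49 and −0.29, each with both knockout values below both wild-type values. The median of the 5 was −0.29, so the list did not move in 1 direction. CDH5, the cadherin of endothelial junctions, rose from 0.751 and 1.07 FPKM to 4.26 and 3.14 FPKM (log2 fold change 1.92, adjusted p = 0.00195 from limma). PDGFRB, a growth factor receptor of fibroblasts and pericytes, rose from 1.08 and 0.735 FPKM to 3.004 and 2.62 FPKM (log2 fold change 1.55, adjusted p = 0.00392 from limma). Both stayed called after rescaling to TPM, where 33.1% of all tested genes were called higher, and after correction for length and GC content. Both, and the 3 not called, were named after their values were seen. The part of other cell types in the complement values was not tested. The results below are therefore those of the libraries labelled HepG2, whose identity cannot be taken from the label alone. TXNDC9 itself measured 35.1 and 37.3 FPKM (wild type) against 21.9 and 27.6 FPKM (knockout). Its FPKM as deposited was thus lower in both knockout libraries, and its mRNA was absent from neither. GAPDH, ACTB and the sum of FPKM were lower there too, the sum at 535973 and 568279 against 805816 and 971102 in wild type. Taken as a share of that sum, TXNDC9 overlapped between the groups, so a fall apart from this scaling is not shown. The difference in TXNDC9 was not tested.

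**Figure D1:**
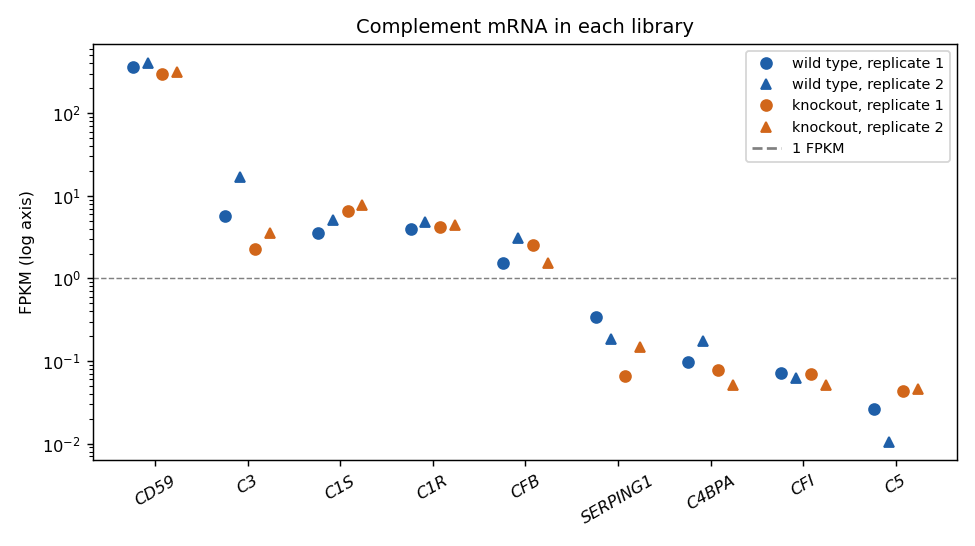
FPKM on a log axis (vertical) of the 9 complement genes (horizontal, in falling order of their mean) in each of the 4 libraries; circles and triangles are replicates 1 and 2, blue is wild type and orange is knockout, and the dashed line is 1 FPKM. CD59 stood above 301 FPKM in every library, 4 genes lay between 1.53 and 16.8 FPKM, and 4 lay at or under 0.342 FPKM.

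The 9 genes fell into 3 ranges of level. CD59 was the highest in all 4 libraries, at 301 to 406 FPKM, and 97.7% of the tested genes had a lower mean. C3, C1S, C1R and CFB were between 1.53 and 16.8 FPKM, and their order changed between libraries: C3 stood next to CD59 in both wild-type libraries, and C1S did so in both knockout libraries. Over all 4 libraries the range of C3 overlapped those of the other 3, and C1S overlapped C1R, so their order is not fixed beyond their spread, while CFB stayed below both C1S and C1R. SERPING1, C4BPA, CFI and C5 stayed at or under 0.342 FPKM, with C5 the lowest in all 4 libraries, and SERPING1 overlapped C4BPA, as C4BPA overlapped CFI, but C5 stayed below CFI.

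The 200 bases before the annotated start are shown for genes from each range of level, 5′ to 3′ on the strand of the gene, to set highly and barely detected genes side by side. RefSeq held such a window (GRCh38.p14) for 6 of the 9 genes, and C3, C1S and SERPING1 had none in the table. Where a gene had more than 1 start, the first listed is shown. C4BPB, the neighbour of C4BPA on chromosome 1, is added because the pair encodes the chains of C4b-binding protein and lies at very different levels. Capitals mark matches on either strand to the TATA box (letters TATAAA), the CCAAT box, the gamma-activated site (TTCNNNGAA), the C/EBP site (TTNCNNAA), the interferon-stimulated response element, the NF-kappaB site and the GC box (letters GGGCGG).
CD59, chr11:33736480-33736679, minus strand: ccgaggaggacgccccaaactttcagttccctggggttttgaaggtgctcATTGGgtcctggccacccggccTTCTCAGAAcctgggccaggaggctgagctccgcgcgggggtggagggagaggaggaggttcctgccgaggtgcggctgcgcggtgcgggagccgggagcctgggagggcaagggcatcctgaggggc
C4BPB, chr1:207088660-207088859, plus strand: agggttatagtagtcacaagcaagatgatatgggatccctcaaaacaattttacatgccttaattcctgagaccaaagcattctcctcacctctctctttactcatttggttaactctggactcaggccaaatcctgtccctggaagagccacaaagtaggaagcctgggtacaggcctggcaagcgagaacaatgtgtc
C1R, chr12:7092446-7092645, minus strand: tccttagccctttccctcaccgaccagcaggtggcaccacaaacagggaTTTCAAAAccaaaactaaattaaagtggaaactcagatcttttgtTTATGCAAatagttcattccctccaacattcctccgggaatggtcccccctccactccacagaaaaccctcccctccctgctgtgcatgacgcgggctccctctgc
CFB, chr6:31945895-31946094, plus strand: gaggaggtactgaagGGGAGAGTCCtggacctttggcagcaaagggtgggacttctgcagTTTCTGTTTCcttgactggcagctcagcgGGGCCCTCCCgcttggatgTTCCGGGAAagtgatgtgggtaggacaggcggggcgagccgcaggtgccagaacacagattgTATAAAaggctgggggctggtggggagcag
C4BPA, chr1:207104033-207104232, plus strand: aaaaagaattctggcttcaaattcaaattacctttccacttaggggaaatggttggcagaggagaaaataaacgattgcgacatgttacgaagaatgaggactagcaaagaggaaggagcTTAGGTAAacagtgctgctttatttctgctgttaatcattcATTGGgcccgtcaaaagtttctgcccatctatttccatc

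The CFB window held a TATA box 30 bases before the start, a gamma-activated site at 92 bases and an interferon-stimulated response element at 140 bases. Over the 35116 windows of the same length, 8.59% held TATAAA, 5.09% the gamma-activated site and 2.40% the interferon-stimulated response element. The CD59 window also held a gamma-activated site, at 128 bases, and a CCAAT match at 150 bases (28.0% of windows). The C1R window held 2 C/EBP matches, a motif found in 26.8% of windows. CpG pairs numbered 12 in the CD59 window, 6 in that of CFB and 4 in those of C1R and C4BPA. The C4BPB window held 1, against a median of 9, so the highly detected C4BPB had fewer than the barely detected C4BPA. The windows of C5 (first listed start) and CFI, both barely detected, are not shown and held 21 and 1. The CFB window held 2 NF-kappaB matches (19.0% of windows), and none of the shown windows held GGGCGG (40.1%). These matches describe letters in these windows only, and other listed starts held other matches. CD59 had 4 listed starts, C4BPB 3 and C1R 2. Start 2 of CD59 held GGGCGG at 60 and 47 bases. A gamma-activated site lay at 43 bases in start 3 of C4BPB and at 86 bases in start 2 of C1R.

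Across all 9 genes, none was called changed upon TXNDC9 knockout. The comparison asked which mRNAs differed between knockout and wild-type libraries, and calls required a fold change of 2 or more and an adjusted p below 0.01 (limma, Benjamini-Hochberg over 13246 genes). Of the 5 tested genes 0 were called, where 29.5% of all tested genes were called, 15.3% lower and 14.2% higher. At an unadjusted p under 0.05 there were 2 of the 5, C3 and C1S, against 71.3% of all tested genes. Of the 5, C3, CD59 and C1S had groups that did not overlap, as did 86.1% of all tested genes. The median log2 fold change was −0.13 for the 5 genes and −0.09 for all tested genes. Fewer cells of a type and less RNA per cell cannot be told apart in such libraries.

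**Figure D2:**
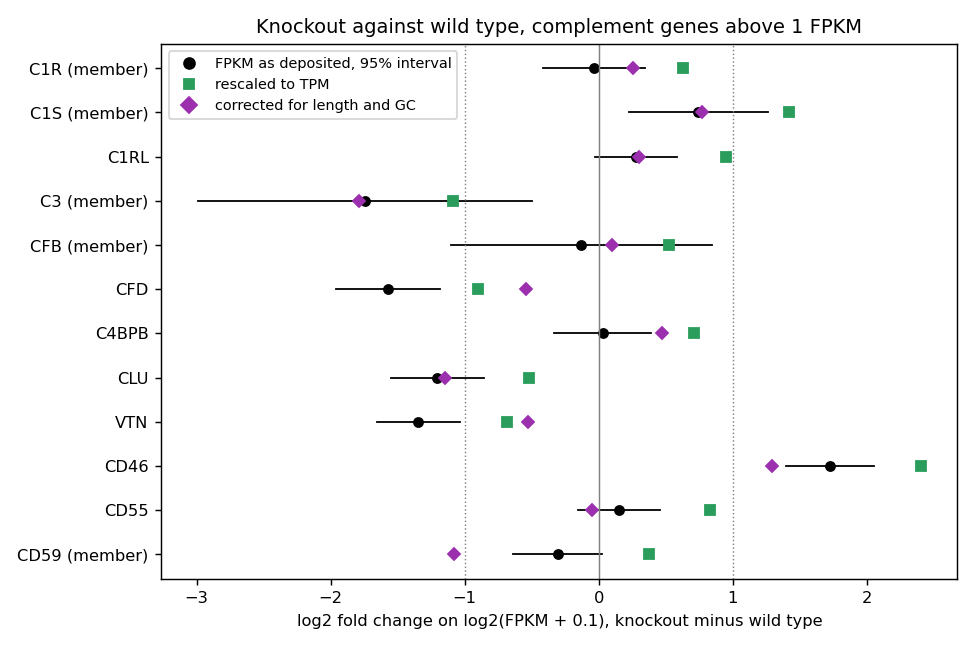
Log2 fold change on log2(FPKM + 0.1), knockout minus wild type (horizontal), of complement genes above 1 FPKM (vertical, by role); black circles with 95% intervals are values as deposited, green squares after rescaling to TPM and purple diamonds after correction for length and GC, and dotted lines mark a fold change of 2. CD46 lay furthest to the right (1.73) and C3 furthest to the left (−1.75), and the interval of C3 ran from −2.99 to −0.50.

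Neither protease of the first component was called, and their fitted values differed. C1R (ENSG00000159403, chromosome 12 from 7080214 to 7092540, minus strand) encodes the protease that activates C1s, and measured 3.99 and 4.84 FPKM (wild type) against 4.16 and 4.40 FPKM (knockout). These groups overlapped, with a log2 fold change of −0.04 (95% interval −0.42 to 0.34, adjusted p = 0.844 from limma). C1S (ENSG00000182326, chromosome 12 from 6988259 to 7071032, plus strand) encodes the protease that cleaves C4 and C2, and measured 3.51 and 5.14 FPKM (wild type) against 6.61 and 7.81 FPKM (knockout). Both knockout values of C1S lay above both wild-type values, with means of 4.32 ± 1.15 and 7.21 ± 0.851 FPKM (SD, n = 2). On the log2 scale the difference was 0.74 with a standard error of 0.21 and an adjusted p of 0.0221 (limma), short of both thresholds. Without wild-type replicate 2 it was called, at 1.01 (adjusted p = 0.00348 from limma), and so it was after giving all libraries 1 common sum (TPM), at 1.42, where 33.1% of all tested genes were called higher.

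The proteins of this pair assemble in equal numbers, and their ratio within a library does not depend on how that library was scaled. The ratio of C1S to C1R was 0.880 and 1.06 in the wild-type libraries and 1.59 and 1.77 in the knockout libraries. The means were 0.971 ± 0.129 and 1.68 ± 0.133 (SD, n = 2), and this difference was larger than the spread in either group. With 2 libraries a side, the smallest two-sided p of an exact permutation test is 0.333, so no p is given for this ratio. On the log2 scale the difference between the fold changes of C1S and C1R was 0.78, and 0.51 after each library was corrected for length and GC content. C1S overlaps LPCAT3 on the other strand and 3 other annotated genes, and C1R overlaps C1RL. The use of strand in counting is not given in the sources used here, so reads of the overlapping parts cannot be told apart.

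**Figure D3:**
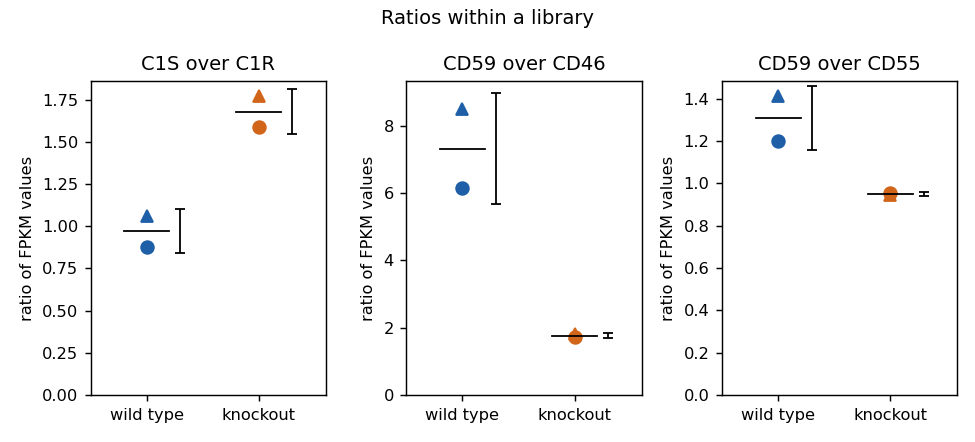
Ratios of FPKM values within a library (vertical, each panel from 0) for C1S over C1R, CD59 over CD46 and CD59 over CD55; circles and triangles are replicates 1 and 2, horizontal lines are means of 2 libraries and the bars beside them are 1 SD. The knockout libraries lay at 1.59 and 1.77 for C1S over C1R, above both wild-type libraries, and below both wild-type libraries for the other ratios.

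Among the 5 tested members, C3 had the largest fitted difference and also the largest standard error. C3 (ENSG00000125730, chromosome 19 from 6677704 to 6730562, minus strand), whose product is cleaved in every complement pathway, measured 5.75 and 16.8 FPKM (wild type) against 2.29 and 3.58 FPKM (knockout). Both knockout values lay below both wild-type values, but wild-type replicate 2 stood far above replicate 1. The means were 11.3 ± 7.80 and 2.93 ± 0.909 FPKM (SD, n = 2), a ratio of wild type to knockout of 3.84. On the log2 scale this came to −1.75 with a standard error of 0.50, and the adjusted p of 0.0240 (limma) did not pass 0.01. Without wild-type replicate 1 it was −2.51 and called (adjusted p = 6.47e-04 from limma), and without wild-type replicate 2 it was −0.98 and not called. C3 overlaps GPR108 at its start and a long noncoding RNA, both on the same strand.

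CFB (ENSG00000243649, chromosome 6 from 31945650 to 31952086, plus strand), whose product carries the protease of the alternative pathway C3 convertase, measured 1.53 and 3.08 FPKM (wild type) against 2.51 and 1.56 FPKM (knockout). The groups overlapped throughout. The log2 fold change was −0.13, and its 95% interval ran from −1.11 to 0.84, so 2-fold falls lay within it. CFB overlaps the end of C2 and a readthrough gene that joins them, and C2 itself was at 0.208 to 0.413 FPKM.

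CD59 (ENSG00000085063, chromosome 11 from 33703010 to 33736479, minus strand) encodes a lipid-anchored protein that stops C9 from completing the pore. It measured 360.1 and 406 FPKM (wild type) against 301 and 318 FPKM (knockout), with both knockout values below both wild-type values. The means were 383 ± 32.7 and 309.8 ± 11.9 FPKM (SD, n = 2). On the log2 scale CD59 differed by −0.30 (95% interval −0.64 to 0.03, adjusted p = 0.0899 from limma). This value depended on scaling: it was 0.38 after rescaling to TPM, which raised the median of all tested genes from −0.09 to 0.59. With length and GC content corrected for it was −1.08 and called (adjusted p = 0.00126 from limma), where 7.39% of genes were called lower. The canonical transcript of CD59 is 7563 nt long, and genes of such length were mostly higher in the knockout libraries. A readthrough gene on the same strand overlaps CD59.

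**Figure D4:**
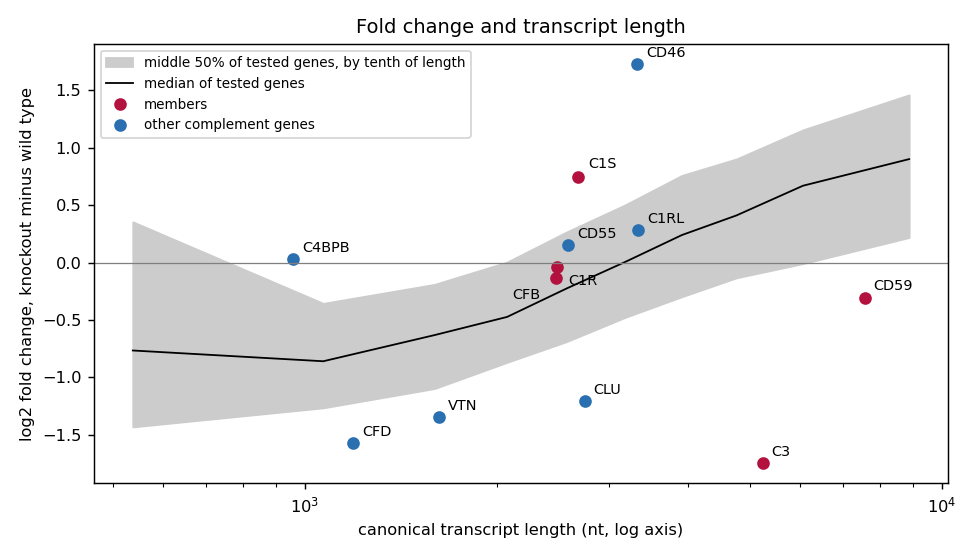
Log2 fold change, knockout minus wild type (vertical), against canonical transcript length in nt on a log axis (horizontal); the line is the median and the band the middle 50% of tested genes in 10 groups of length, red points are members and blue points other complement genes above 1 FPKM. C3 (5231 nt, −1.75) and CD59 (7563 nt, −0.30) lay below the band, and C1S (2682 nt, 0.74) above it.

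The relation of the fold change to transcript length touched these values. Among 13112 tested genes with a canonical transcript, the Spearman correlation with length was 0.495 and with GC content −0.462 for the log2 fold change, as a description across genes that share libraries. In the 2 groups of longest transcripts (median length 6056 and 8887 nt) the median log2 fold change was 0.67 and 0.90, and in the group with a median of 2574 nt it was −0.23. CD59 and C3 therefore went against genes of like length, while C1R (2488 nt) and CFB (2476 nt) lay inside the middle 50% of theirs. The correction left C3 at −1.79 and C1S at 0.77, neither called, and moved C1R to 0.26 and CFB to 0.10. The part of RNA quality or library preparation in the length relation was not tested.

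The remaining 4 genes were too low for the test. SERPING1 (ENSG00000149131, chromosome 11 from 57597387 to 57619171, plus strand), the inhibitor of C1r and C1s, measured 0.342 and 0.185 FPKM (wild type) against 0.0666 and 0.149 FPKM (knockout). C4BPA (ENSG00000123838, chromosome 1 from 207104233 to 207144972, plus strand), the alpha chain of C4b-binding protein, measured 0.0981 and 0.176 FPKM (wild type) against 0.0776 and 0.0512 FPKM (knockout). For both, the knockout values lay below the wild-type values, at levels under the filter of 1 FPKM and with the depth unknown. The 86.1% of genes whose groups did not overlap covers only genes above that filter. CFI (ENSG00000205403, chromosome 4 from 109731008 to 109802150, minus strand), the protease that inactivates C3b and C4b, measured 0.0725 and 0.0614 FPKM (wild type) against 0.0704 and 0.0516 FPKM (knockout), which overlapped. C5, whose cleavage starts the terminal pore (ENSG00000106804, chromosome 9 from 120932987 to 121075195, minus strand) measured 0.0259 and 0.0106 FPKM (wild type) against 0.0433 and 0.0454 FPKM (knockout), both above the wild-type values. C5 overlaps CNTRL on the other strand, CFI a readthrough gene and C4BPA a long noncoding RNA. With no filter on low values, limma gave these 4 genes adjusted p-values from 0.239 to 0.881, and 0 were called.

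**Figure D5:**
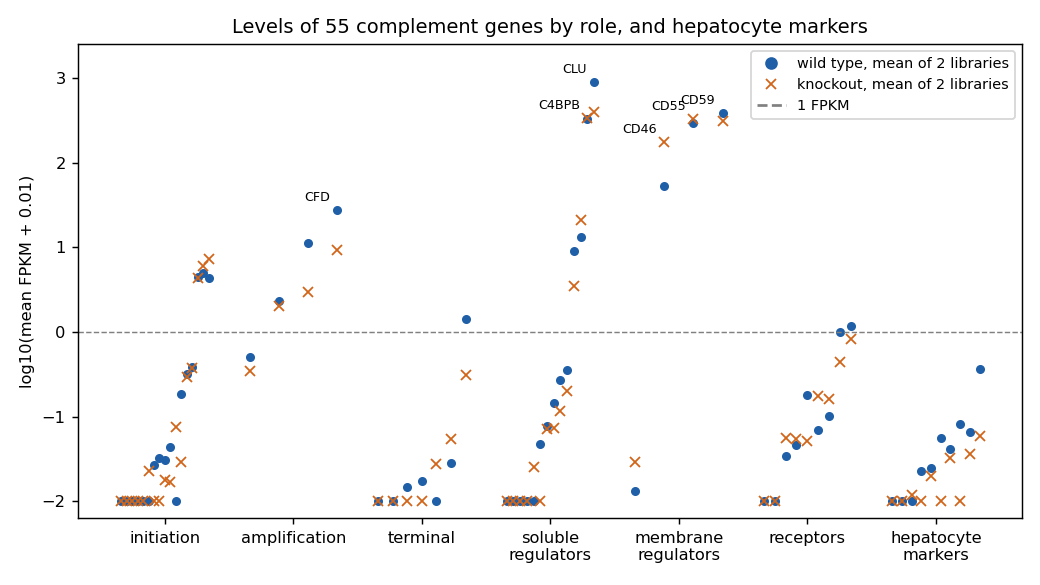
Mean level of 2 libraries as log10(FPKM + 0.01) (vertical) of 55 complement genes by role and of 10 hepatocyte markers (horizontal, in rising order within each role); blue circles are wild type, orange crosses knockout, and the dashed line is 1 FPKM. CLU, C4BPB, CD59, CD55 and CD46 stood highest. The hepatocyte markers and, apart from C8G, the terminal components lay near the bottom, where a value of 0 plots at −2, as did CR1 among the membrane regulators.

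The levels of the wider pathway differed by role. Of 55 complement genes in 6 role lists, 13 had an average above 1 FPKM, 29 were under 0.1 FPKM in every library and 13 were listed at 0 in all of them. Genes under the filter are named here after their values were seen. Among 17 genes of initiation, 3 were tested (C1R, C1S and C1RL) and 0 were called, against 29.5% of all tested genes. The C1q chain genes C1QA and C1QB were at 0 in all libraries. C1RL, which encodes a protease related to C1r, measured 4.78 and 5.10 FPKM (wild type) against 5.81 and 6.23 FPKM (knockout), a log2 difference of 0.28 (adjusted p = 0.0892 from limma). Both C4 genes, near-identical copies whose reads can be shared, were at or under 0.323 FPKM. Of 7 terminal pathway genes 0 passed the filter, and C8G, which encodes the gamma chain of C8, was the highest, with 0.794 and 2.05 FPKM (wild type) against 0.293 and 0.318 FPKM (knockout). Of 9 receptor genes 0 passed it either, with no value above 1.67 FPKM. CD46, CD55 and CD59 were at 47.9 FPKM or more in the same libraries in which 29 of the 55 genes stayed under 0.1 FPKM.

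Among the soluble regulators, 4 of 14 were tested. Of these, 2 were called lower and 0 higher, against 15.3% and 14.2% of all tested genes. CLU, which encodes clusterin, fell from 892 and 918 FPKM to 405 and 381 FPKM (log2 fold change −1.20, adjusted p = 0.00102 from limma). VTN, which encodes vitronectin, fell from 8.66 and 9.47 FPKM to 3.37 and 3.64 FPKM (log2 fold change −1.35, adjusted p = 6.51e-04 from limma). The CLU fall stayed called after the correction for length and GC content (−1.15), and that of VTN did not (−0.53). VTN overlaps SARM1 on the other strand. C4BPB, the beta chain gene beside C4BPA, measured 298 and 359 FPKM (wild type) against 329 and 339 FPKM (knockout), with overlapping groups and a 95% interval of the log2 fold change from −0.33 to 0.39. C4BPA, whose product makes up most of the same complex in plasma, thus stayed at or under 0.176 FPKM in libraries where C4BPB had a mean above that of 97.6% of tested genes.

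CFD, which encodes factor D, the protease that cleaves factor B, was the only other gene of amplification that was tested. It fell from 24.1 and 31.4 FPKM to 9.81 and 8.60 FPKM, a log2 fold change of −1.57 (adjusted p = 7.35e-04 from limma). After the correction for length and GC content it was −0.54 and no longer called, and its canonical transcript has 1191 nt. Of the 3 tested genes of amplification, 1 was thus called lower and 0 higher, against 15.3% and 14.2% of all tested genes.

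Of the 3 tested membrane regulators, 1 was called higher and 0 lower, against 14.2% and 15.3% of all tested genes. CD46, a cofactor for the inactivation of C3b and C4b, rose from 58.5 and 47.9 FPKM to 175.4 and 175.7 FPKM (log2 fold change 1.73, standard error 0.13, adjusted p = 5.38e-04 from limma), and it stayed called at 1.29 after the correction for length and GC content. CD55, which speeds the decay of the convertases, measured 299 and 287 FPKM (wild type) against 315 and 337 FPKM (knockout), a log2 fold change of 0.15 with a 95% interval from −0.16 to 0.46. The ratio of CD59 to CD46 was 6.16 and 8.49 in the wild-type libraries and 1.72 and 1.81 in the knockout libraries. The ratio of CD59 to CD55 was 1.20 and 1.41 in the wild-type and 0.957 and 0.945 in the knockout libraries. Each of these ratios was lower in both knockout libraries than in both wild-type libraries. CR1, a receptor and regulator of blood cells, was at or under 0.0252 FPKM. CD46 overlaps MIR29B2CHG on the other strand.

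Over the 46 complement genes other than the 9, 8 were tested. Of these, 3 were called lower (CFD, CLU and VTN) and 1 higher (CD46), against 15.3% and 14.2% of all tested genes. The median log2 fold change of the 8 was 0.09. With rescaling to TPM none of the 3 falls was called, at −0.90, −0.52 and −0.68, while CD46 was called at 2.41. On that scale 33.1% of all tested genes were called higher, and 447 genes lower. With either knockout library left out none of these 4 genes, nor any other gene, was called, though the fitted values of the 4 stayed close, at 1.73 and 1.73 for CD46, −1.67 and −1.48 for CFD, −1.25 and −1.16 for CLU and −1.29 and −1.40 for VTN. That fit sets 2 libraries against 1, as does leaving out wild-type replicate 1 or 2. The values there were 1.87 and 1.58 for CD46, −1.76 and −1.38 for CFD, −1.22 and −1.18 for CLU and −1.41 and −1.28 for VTN. Why the calls were lost without a knockout library was not tested.

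Complement genes of the liver are switched on by interleukin-6 through STAT3 and C/EBP factors, by interferon through IRF1, and by NF-kappaB. Of 14 genes for such signalling and transcription factors, 11 were tested, 3 were called higher and 0 lower. Over all tested genes 14.2% were called higher and 15.3% lower. At an unadjusted p under 0.05 (limma) there were 6 of the 11, against 71.3% of all tested genes. IL6ST, the shared signalling chain of the interleukin-6 receptor, rose from 4.08 and 5.12 FPKM to 14.2 and 15.0 FPKM (log2 fold change 1.66). IL6R, the binding chain, rose from 1.46 and 1.28 FPKM to 3.59 and 3.66 FPKM (log2 fold change 1.34). STAT3 rose from 36.3 and 35.7 FPKM to 78.3 and 81.1 FPKM (log2 fold change 1.14). After the correction for length and GC content these values were 0.52, 0.99 and 0.84, and none was called. CEBPB, which encodes a C/EBP factor, measured 20.5 and 22.3 FPKM (wild type) against 20.0 and 26.7 FPKM (knockout). Its log2 fold change was 0.11 as deposited. Among the 3 scales compared it was called only under the length and GC correction, at 1.09 (adjusted p = 0.00323 from limma). CEBPD, another C/EBP factor gene, went from 38.2 and 38.8 FPKM to 16.9 and 22.7 FPKM. Its log2 fold change was −0.97 as deposited and 0.09 after the correction, not called on either scale. CEBPA and SOCS3 stood at −0.0002 and −0.04 as deposited and at 0.83 and 0.47 after the correction, and neither was called. CEBPB, CEBPD, CEBPA and SOCS3 were named after their values were seen. RELA, a subunit of NF-kappaB, was 37.1 and 35.2 FPKM and then 25.2 and 26.3 FPKM (log2 fold change −0.49, adjusted p = 0.00651 from limma), under the 2-fold threshold. The 3 genes of this list that were not tested included the hepatocyte factors HNF4A and NR1H4, at or under 0.0628 FPKM.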

How the data were processed

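The authors mapped reads to hg38 with TopHat2 and an Ensembl annotation. Cuffdiff of Cufflinks gave the deposited FPKM of every gene in each library, with each condition's mean, a fold change, a p-value and a q-value. The authors' comparison columns were not used. Versions, library normalization and strand setting are not given in the sources used here. Each identifier stood on 4 lines of the deposited table, out of register with the symbols, and members were taken by symbol. No step worth 1 read was found (at most 4.53% of low genes shared a log2 ratio), so the depth is unknown and no counting intervals are given. FPKM summed to 805816 and 971102 in the wild-type and 535973 and 568279 in the knockout libraries.

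Values were compared on the scale log2(FPKM + 0.1) for genes averaging above 1, which understates changes of low genes, with limma 3.58.1 in R 4.3.3 (trend in the prior variance, all 4 libraries, no replicate block). Transcript lengths, GC content, positions and overlaps came from GENCODE release 44. The correction fitted a loess surface (span 0.3) to each library's deviations from the gene means. The fit was tested on simulated data with independent noise. That test does not show how the uncorrected fit performs on these libraries, where the fold change was related to transcript length. The members and lists were chosen with earlier results of these data known. Named were all 9 members, and in each other list of complement genes and their regulators the called genes and the 2 tested genes with the highest mean. Alternatives covered pseudocount, filter, scaling, correction, block, trend, threshold and each library left out. Python 3.11.15, pandas 2.3.3, numpy 2.4.6 and matplotlib 3.10.9 were used. Some genes of the lists are counted but not reported by name here.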

Additional observations from a re-analysis of the deposited data

How the results depend on the processing

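With 2 libraries in each condition and unknown depth, values near 0 FPKM and the spread of C3 limit what can be said. The count of 0 members called became 1 under rescaling to TPM (C1S), under the length and GC correction (CD59), at an adjusted p under 0.05 (C3) and with the replicate block (C3), and 2 under the correction combined with the replicate block (C3 and CD59); with each library left out it ranged from 0 to 1. Deviations of same-numbered libraries correlated at −0.0904 across genes. With 2 libraries in each condition this cannot show whether the numbers pair them. The replicate block gave 2146 lower and 1960 higher calls (2021 and 1885 without it). Over all genes, rescaling to TPM gave 447 lower and 4380 higher calls (90.7% higher, against 48.3%), the correction 969 and 841, the correction with the replicate block 975 and 841, centring on the median 2601 and 1452 (35.8% higher) and an average above 5 FPKM 1220 higher. With each library left out, lower calls ranged from 0 to 2633 and higher calls from 0 to 2136; the 0 came without either knockout library, where limma left 7129 and 7307 genes at an unadjusted p under 0.05, and the lone library was assumed to vary like the wild-type pair. The cause of these shifts was not tested.

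C3 was −1.75 with the replicate block and −1.79 with the correction and the replicate block, both called, and ranged from −2.51 to −0.98 with each library left out. C1S was called at 1.42 under TPM, and ranged from 0.48 to 1.01 with each library left out. CD59 was 0.38 under TPM and −1.08, called, under the correction, also with the replicate block, and ranged from −0.39 to −0.22. CFB turned to 0.53 under TPM and to 0.10 under the correction, also with the replicate block, and ranged from −0.61 to 0.35. C1R turned to 0.63 under TPM and to 0.26 under the correction, also with the replicate block, and ranged from −0.17 to 0.10. Of the other genes, C4BPB turned to −0.11 under centring and ranged from −0.11 to 0.16, CD55 turned to −0.047 under the correction, and RELA to 0.19 under TPM and 0.015 under the correction, with the same values when the replicate block was added to the correction. With either knockout library left out CFD, CLU, VTN, CD46, IL6R, IL6ST and STAT3 were not called, in a fit of 2 libraries against 1, while their values stayed close (IL6ST 1.69 and 1.62, STAT3 1.17 and 1.12, IL6R 1.36 and 1.33). IL6R (0.96) was not called with a pseudocount of 1. Without a filter, only genes above 0 in some library were fitted. Each member had 1 line, so summing repeated lines gave no value.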
